A study of Mus musculus with 8 samples.

Results

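The miR-146 family is represented here by miR-146a and miR-146b, the array names mmu-miR-146a and mmu-miR-146b, which are 2 of the 611 mouse microRNAs (miRNAs) and of the 650 miRNAs in all on the array. They were chosen by name, after earlier results on these arrays had shown miR-146b among the miRNAs that differed most between the groups. The difference of each member between the groups is therefore given as a description, with no p-value of its own, and counts of calls over all tested miRNAs are given only as background. The RNA came from the lungs of C57BL/6 females exposed while pregnant. The 4 Printex 90 samples came from dams given Printex 90, a carbon black nanoparticle powder, in nanopure water into the trachea as 4 doses of 0.067 mg, the first on day 7 of gestation, then on day 10, day 15 and day 18, to a total of 0.268 mg. The 4 vehicle control samples came from dams given the water alone, and all dams were killed at weaning, 26 to 27 days after exposure. Age was not used here, and the labels do not say that each sample was a separate mouse, so any spread between samples may be partly technical. A relative signal is a signal divided by the 75th percentile of its array, so a value of 1 equals that percentile, and group values are mean ± SD (n = 4 arrays).

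miRNAs are short RNAs that guide Argonaute proteins to messenger RNAs, mainly through the seed near their 5′ end, and lower the output of those messages. miR-146a is a classic target gene of NF-kB: Toll-like receptor signalling in macrophages and epithelial cells induces it, and it represses the adaptor proteins IRAK1 and TRAF6 that carry the same signal, a negative feedback loop. miR-146b comes from a separate gene and, having the same seed, is thought to act on many of the same messages.

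The mature strands are shown because they define the family and limit how well an array can tell its members apart. In RefSeq (build GRCm38.p6) the array names match the older names of mmu-miR-146a-5p, from the gene Mir146 at chr11:43374435-43374456 on the minus strand, and mmu-miR-146b-5p, from Mir146b at chr19:46342790-46342811 on the plus strand. Capitals mark the seed, bases 2 to 8.
mmu-miR-146a-5p: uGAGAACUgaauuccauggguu
mmu-miR-146b-5p: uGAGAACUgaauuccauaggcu
Both strands are 22 bases long, and 20 of the 22 bases are identical. Counted from the 5′ end of miR-146a-5p, the differences are G18A and U21C, with miR-146a-5p as the reference, so both lie in the 3′ part outside the seed. Of 1679 mature mouse miRNA names in the RefSeq table, 2 have this seed, and they are these 2. The same comparison with the differing bases in capitals shows how close to the 3′ end they are.
mmu-miR-146a-5p: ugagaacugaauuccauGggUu
mmu-miR-146b-5p: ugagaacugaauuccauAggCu

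Outside the mature strand the precursors differ, as the RefSeq hairpins show, with the measured strand in capitals.
Mir146 hairpin: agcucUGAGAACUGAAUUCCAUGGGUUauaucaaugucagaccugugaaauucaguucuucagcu
Mir146b hairpin: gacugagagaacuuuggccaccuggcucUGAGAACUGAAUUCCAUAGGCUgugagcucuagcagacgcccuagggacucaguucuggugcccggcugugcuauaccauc
The Mir146 hairpin has 65 bases and the Mir146b hairpin 109, and in both the measured strand is the 5′ arm. By RefSeq's gene table Mir146b overlaps the long non-coding RNA gene Gm36493, while Mir146 overlaps 0 other listed genes and lies between Atp10b and Gm5782. The array also carries the passenger strand of miR-146b under its old name miR-146b*, which RefSeq lists as mmu-miR-146b-3p, with another seed.
mmu-miR-146b-3p: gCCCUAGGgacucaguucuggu

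Each array held 13000 spots for these miRNAs, and an array detected between 248 and 283 mouse miRNAs, with 240 common to all 8. A miRNA counted as detected where at least 50% of the spots of 1 of its probes were well above background, and the 268 detected on at least 4 arrays were tested. All arrays shared 1 slide and 1 scan day. Row 1 of the slide held the controls and row 2 the exposed samples, which means that group and slide row cannot be told apart. The 75th percentile before scaling ran from 580.8 to 804.7 intensity units, lowest on Printex 90 replicate 3, which also had the fewest detected miRNAs (248). Lung markers were set beside the tissue label. The endothelial miR-126-3p and miR-126-5p were detected on all 8 arrays, as were the 8 listed epithelial miRNAs (the miR-200 family, miR-34b-5p, miR-34c and miR-449a). Detection alone does not identify the tissue. The erythroid miR-144, miR-451 and miR-486 and the muscle miR-1, miR-133a and miR-133b were also detected on all 8 arrays. Liver miR-122 was detected on 4 control and 3 Printex 90 arrays.

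miR-146a and miR-146b were detected on all 8 arrays, and miR-146b was higher on every Printex 90 array than on any control, whereas the arrays of both groups overlapped for miR-146a. miR-146b measured 0.295, 0.299, 0.280 and 0.224 in vehicle controls 1 to 4 and 0.605, 0.517, 0.323 and 0.507 in Printex 90 samples 1 to 4. The controls lay close together, 3 of the Printex 90 arrays lay well above them, and Printex 90 replicate 3 lay just above the highest control. The group means were 0.488 ± 0.118 after Printex 90 and 0.275 ± 0.0344 in controls. The log2 difference was 0.80 (SE 0.20), a 1.74-fold higher signal with a 95% interval of 1.25 to 2.43 from the limma fit across all tested miRNAs.

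miR-146a measured 1.11, 1.31, 1.05 and 1.30 in vehicle controls 1 to 4 and 1.56, 1.46, 1.16 and 1.45 in Printex 90 samples 1 to 4. Printex 90 replicates 1, 2 and 4 lay above all controls and replicate 3 lay among them. The means were 1.41 ± 0.174 and 1.19 ± 0.134, a log2 difference of 0.24 (SE 0.12) or 1.18-fold, with a 95% interval of 0.972 to 1.43. Before scaling, the summed intensity of miR-146a ran from 656.7 to 1047.6 units in controls and from 671.6 to 1055.1 after Printex 90. Only 1 Printex 90 array then lay above all controls, and the log2 difference without scaling was 0.17 (SE 0.19).

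**Figure D1:**
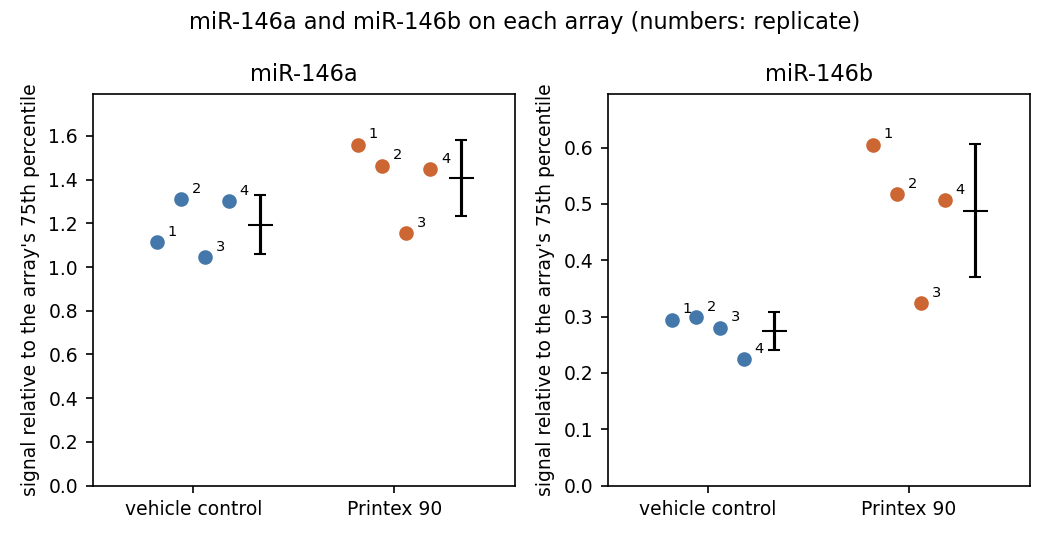
Signal of miR-146a (left) and miR-146b (right), relative to each array's 75th percentile, in 4 vehicle control and 4 Printex 90 arrays; points are arrays numbered by replicate, and bars are mean ± SD. For miR-146b the lowest Printex 90 array (0.323) lies above the highest control (0.299), and for miR-146a replicate 3 of Printex 90 (1.16) lies within the control range.

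In the limma fit across all 268 tested miRNAs, 0% passed an adjusted p of 0.05, and 15 miRNAs had an unadjusted p under 0.05. With values under the floor (0.0388) set to it, groups that did not overlap, with Printex 90 the higher, were found for 1.12% of the tested miRNAs, 3 in number: miR-146b, miR-21 and miR-21*. Without the floor there were 4, the fourth being miR-135b, which was detected on no control array. Nothing is read from this count for miR-146b, since it was chosen with this comparison known. Over all tested miRNAs the log2 differences had a median of -0.05, with 85 above 0, 176 below 0 and 7 at the floor on every array.

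The place of Printex 90 replicate 3 decided how far the group means lay apart. Without that array miR-146b averaged 0.543 ± 0.054 and miR-146a 1.49 ± 0.0601 in the remaining 3 Printex 90 arrays. With the scaling recomputed, the log2 difference without it was 1.06 (SE 0.13) for miR-146b and 0.40 (SE 0.094) for miR-146a, and the count past the limma threshold went from 0 to 2 of 266 miRNAs. These were miR-146b and miR-21, and nothing is read from this for miR-146b either. Before scaling, the summed intensity of miR-146b on that array was 187.8 units, within the control range of 176.1 to 204.1, while the other Printex 90 arrays had 351.9 to 380.6. The array's low 75th percentile therefore set its place just above the controls on the relative scale.

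The spread between arrays differed between the paralogs. The pooled SD within groups was 0.31 log2 units for miR-146b and 0.18 for miR-146a, against a median of 0.12 over the tested miRNAs, which put miR-146b at rank 18 and miR-146a at rank 63 of 268 from the most variable. Among controls the highest miR-146b array was 1.33-fold above the lowest, and among Printex 90 arrays 1.87-fold. The same ranges for miR-146a were 1.26-fold and 1.35-fold. Thus miR-146b varied most within the Printex 90 group, where replicate 3 was low.

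Each member was read by 2 probes, with 8 to 10 usable spots each per array. The probe sequences were not used here. Every usable spot of the 4 probes was well above background on every array. For miR-146a, probe A_54_P2317 gave 79.4% to 80.8% of the summed signal over the 8 arrays and A_54_P2318 the rest. For miR-146b, probe A_54_P2006 gave 80.8% to 82.6% and A_54_P2005 the rest. These shares hardly moved from array to array, so the 2 probes of a miRNA followed each other closely.

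The probes of a member also gave like differences between the groups. For miR-146b the log2 difference was 0.79 (SE 0.21) with A_54_P2006 and 0.85 (SE 0.23) with A_54_P2005, the dimmer probe, and neither probe gave any overlap between the groups. For miR-146a it was 0.24 (SE 0.12) with A_54_P2317 and 0.22 (SE 0.14) with A_54_P2318, and with each probe 3 Printex 90 arrays lay above all controls. The coefficient of variation among replicate spots on an array was 1.26% to 4.21% for A_54_P2317, 1.74% to 10.1% for A_54_P2318, 2.80% to 7.55% for A_54_P2006 and 4.07% to 11.8% for A_54_P2005.

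**Figure D2:**
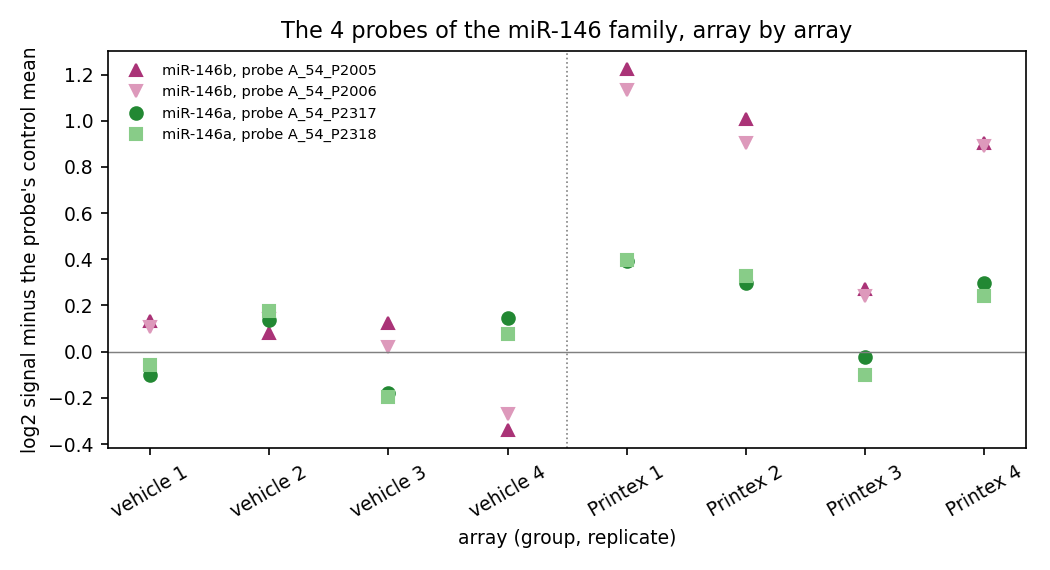
Log2 signal of each of the 4 family probes on each array, minus that probe's mean over the vehicle controls; the dotted line divides the groups. The 2 miR-146b probes lie together on each array and highest on Printex 90 replicates 1, 2 and 4, and the miR-146a probes lie lower there, with differences of 0.24 and 0.22 between the group means.

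The paralogs were then compared within each array, where scaling between arrays cancels. Probes differ in brightness, so the ratio of signals is not a ratio of amounts, and only its change between arrays is read. The miR-146b signal was 26.5%, 22.8%, 26.8% and 17.2% of the miR-146a signal in vehicle controls 1 to 4 and 38.8%, 35.3%, 28.0% and 35.0% in Printex 90 samples 1 to 4. The groups did not overlap, although Printex 90 replicate 3 was again the nearest to the controls. The log2 ratio was 0.57 higher after Printex 90 (SE 0.18), a 1.48-fold higher share, given as a description because it uses the comparison by which miR-146b was known.

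**Figure D3:**
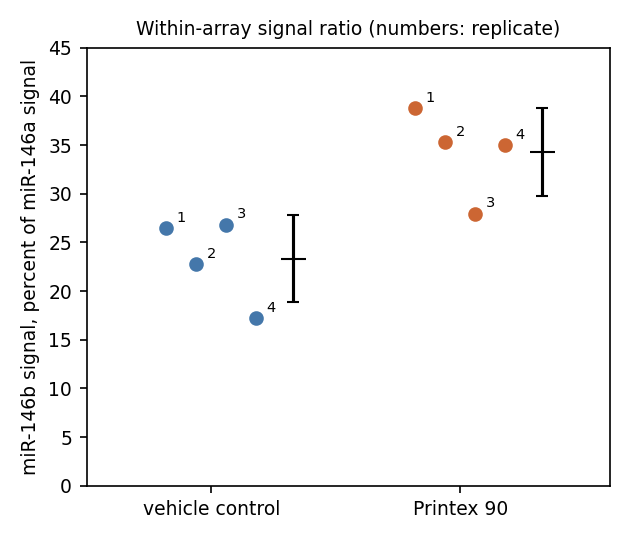
Signal of miR-146b as a percent of that of miR-146a on the same array, in 4 vehicle control and 4 Printex 90 arrays; points are arrays numbered by replicate, and bars are mean ± SD. The Printex 90 arrays lie between 28.0% and 38.8% and the controls between 17.2% and 26.8%.

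That ratio ran over the 8 arrays from 17.2% to 38.8%, so the miR-146b signal was not a fixed fraction of the miR-146a signal. Vehicle control replicate 4 had the lowest miR-146b (0.224) of all arrays but the next to highest miR-146a of its group (1.30). How much of either signal came from the other, near-identical strand was not tested.

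The array's 39 herpesvirus miRNAs were set beside the family, and the brightest of them measured 0.204 to 0.270. miR-146a lay 3.94-fold to 7.10-fold above it on the same array. miR-146b lay above it on 8 of 8 arrays, by 1.06-fold to 1.27-fold in controls and by 1.41-fold to 2.48-fold after Printex 90. The miR-146b signal in controls was therefore close to the brightest signal from a miRNA the tissue should not make. Only 3 or 4 of the 39 were detected on an array, so that brightest signal is not a general background level. Negative control spots averaged 3.14 to 4.38 intensity units per array, against 176.1 to 204.1 in controls for miR-146b, summed over its 2 probes.

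The passenger strand miR-146b* was detected on 0 of 8 arrays. Its summed signal after background subtraction was below 0 on every array, from -12.8 to -8.49 intensity units in controls and from -7.36 to -4.08 after Printex 90, and none of its spots was well above background. The passenger strand thus gave no second reading of the miR-146b gene.

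The wider pathway was described through a list of 22 miRNAs that Toll-like receptor or NF-kB signalling is known to induce or repress, or that act on its components. Of these 18 were tested, the 2 family members included, and miR-9, miR-132, miR-147 and miR-187 were not. In limma 0 of the 18 passed over all tested miRNAs, and 3 had an unadjusted p under 0.05, where 15 of all 268 tested miRNAs did. The 3 include miR-146b, which was chosen with this comparison known, so nothing is read from this count. By sign 11 were higher and 7 lower, where 31.7% of all tested miRNAs were higher. The log2 differences of the 18 had a median of 0.02. Without miR-146a and miR-146b the median of the other 16 was also 0.02, with 9 higher. The list was drawn up with earlier results known and is not independent evidence of a direction.

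Among miRNAs induced by the same signals, the values nearest to those of miR-146b were those of miR-21 and miR-155. miR-21, induced in inflamed and injured tissue, differed by 0.49 (SE 0.086) and its groups did not overlap. miR-155, made by activated macrophages and lymphocytes, measured 0.0458 to 0.068 in controls and 0.0547 to 0.0948 after Printex 90, with overlap (log2 difference 0.50, SE 0.19). Its signal lay below the brightest herpesvirus miRNA in both groups. miR-212 differed by 0.07 (SE 0.088), its cluster partner miR-132 being above background on only 1 control and 1 Printex 90 array, and miR-147, another miRNA induced in macrophages, was detected on no array.

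Of miRNAs that act on the pathway's receptors, adaptors or products, let-7i, which represses Toll-like receptor 4, differed by 0.02 (SE 0.032). miR-145, which represses the adaptor TIRAP, differed by -0.12 (SE 0.20). miR-125b-5p, which represses TNF, differed by -0.06 (SE 0.066), and its relative miR-125a-5p by -0.05 (SE 0.056). The remaining tested members with small values were let-7e (0.03), miR-19b (-0.06), miR-29b (0.02), miR-181c (-0.06), miR-203 (0.02), miR-210 (0.05), miR-221 (-0.03) and miR-511 (-0.11), each with a 95% interval that includes no difference.

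**Figure D4:**
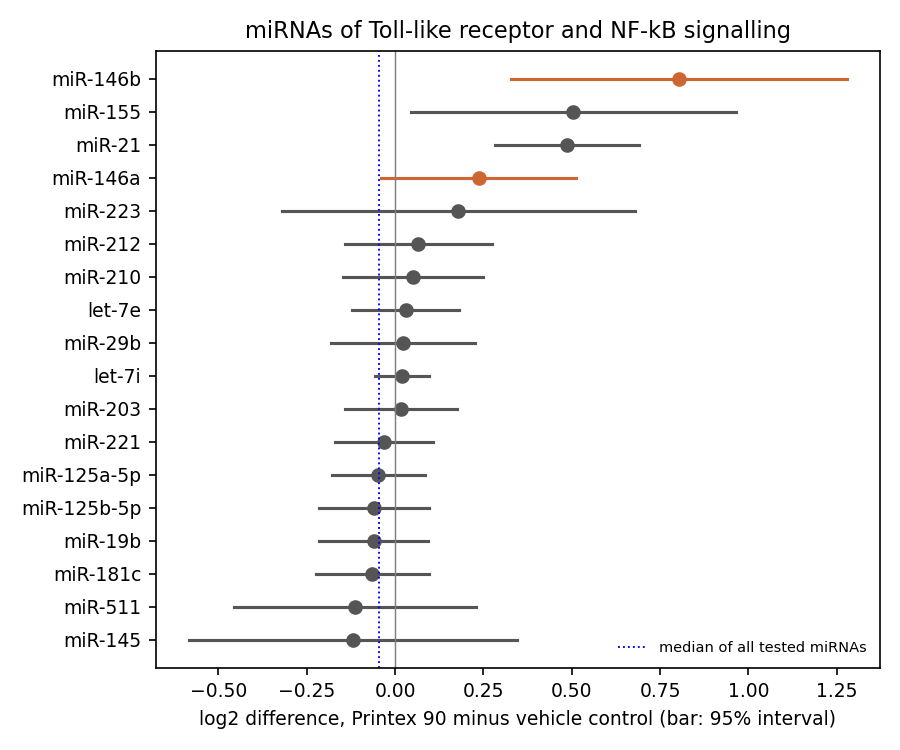
Log2 difference (Printex 90 minus vehicle control, n = 4 arrays each) of the 18 tested miRNAs of the pathway list, with 95% intervals from limma; the miR-146 family is in orange and the dotted line is the median of all tested miRNAs (-0.05). miR-146b (0.80) is at the top and miR-146a (0.24) follows after miR-155 and miR-21, and most other members lie near 0.

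miR-146a is abundant in white blood cells, so leukocyte markers were set beside it. The 6 markers (miR-150, miR-155, miR-223, miR-342-3p and both strands of miR-142) were detected on all 8 arrays. Their summed relative signal ran from 7.12 to 9.11 in controls and from 7.51 to 8.90 after Printex 90. In limma 0 of the 6 passed, and 1 had an unadjusted p under 0.05, where 15 of all 268 tested miRNAs did. That 1 was miR-155, already counted in the pathway list. Their median was -0.02 on the log2 scale, with 2 above 0 and 4 below 0, where 31.7% of all tested miRNAs were above 0. miR-142-3p, made throughout the blood lineage, differed by -0.02 (SE 0.081). That median lies between members that went both ways, from -0.14 for miR-150 to 0.50 for miR-155. miR-223 of neutrophils and macrophages ran from 1.58 to 2.21 in controls and from 1.70 to 3.21 after Printex 90 (log2 difference 0.18, SE 0.21). Its highest value was on Printex 90 replicate 3, where miR-146b was lowest of its group. On that array miR-155 (0.0547), miR-142-5p (0.795) and miR-150 (0.208) were also lowest of their group. miR-142-3p and miR-342-3p were neither highest nor lowest there, so the markers did not move together on that array. Lung epithelial cells also make miR-146a. On the log2 scale 8 of the 8 listed epithelial miRNAs were above 0 (median 0.09), where 31.7% of all tested miRNAs were. Of the 8, 0 passed the limma threshold and 0 had an unadjusted p under 0.05. Without scaling between arrays 5 of the 8 were above 0 (median 0.02), and likewise with array weights (median 0.01). Without vehicle control replicate 4 the median was 0.03. Their summed relative signal ran from 11.3 to 14.2 in controls and from 12.4 to 16.6 after Printex 90. All of them except miR-449a were highest of their group on Printex 90 replicate 3, where miR-146a and miR-146b were lowest of theirs. Of strands outside the list, miR-34b-3p differed by -0.03 (SE 0.12) and miR-34c* by 0.03 (SE 0.17). The count of 8 therefore holds for this list only. Over all 268 tested miRNAs, 176 were below 0. The 3 erythroid markers were all below 0 (median -0.25), and 2 of 3 were without vehicle control replicate 1 (median -0.03). The 4 striated muscle markers were all below 0 (median -0.74, from -1.52 without Printex 90 replicate 1 to -0.23 with normexp, where 1 was above 0). The part of any of these cell types in the miR-146 values was not tested. In whole lung RNA, more cells of a type and more RNA per cell cannot be told apart.

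Likeness of pattern was measured as Pearson's r of log2 relative signal over the 8 arrays, against the 239 other mouse miRNAs detected on all arrays. These arrays share the group difference, the scaling and the RNA of each sample, so r is a description. The miRNAs most like miR-146b were miR-21 (r = 0.97), miR-155 (0.93) and miR-31 (0.92), where the median over the 239 was -0.13. miR-21 ranked the 8 arrays in the same order as miR-146b (Spearman's rho 1). The same 3 miRNAs were most like miR-146a, miR-155 first (0.86), then miR-31 (0.85) and miR-21 (0.76). The paralogs had r = 0.76 with each other, which gave each rank 5 of 239 in the other's order.

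With each group's mean subtracted, r over the 8 arrays stayed at 0.91 between miR-146b and miR-21 and at 0.88 between miR-146b and miR-155, and the third was miR-466j (0.83), from the Sfmbt2 intron cluster. Without Printex 90 replicate 3 these became 0.79, 0.73 and 0.61. For miR-146a the 3 were miR-155 (0.76), miR-31 (0.75) and miR-21 (0.61), which became 0.51, 0.53 and 0.15. Between the paralogs themselves r was 0.57 with the group means subtracted and -0.17 without Printex 90 replicate 3. It was 0.57 without the 2 arrays farthest from the median of miR-146b and -0.13 without the 2 farthest for miR-146a, so no stable likeness of the paralogs within groups was shown. Leaving out the 2 farthest arrays in the same way, miR-146b gave 0.62 with miR-21, 0.73 with miR-155 and -0.04 with miR-466j. For miR-146a it gave 0.40 with miR-155, 0.34 with miR-31 and -0.15 with miR-21.

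Other ways of processing moved both differences but not their order. Over scalings, background corrections, filters, floors, single probes, the authors' deposited value table and each left-out array, the log2 difference of miR-146b ran from 0.58 to 1.06 and that of miR-146a from 0.16 to 0.40, above 0 in 22 of 22 alternatives for each. The smallest miR-146b difference (0.58) came from the authors' deposited table. In that deposited table miR-146b ranged on the log2 scale from 6.81 to 6.92 in controls and from 7.04 to 7.61 after Printex 90, again without overlap, and miR-146a from 8.26 to 8.74 and from 8.42 to 8.87, with overlap.

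**Figure D5:**
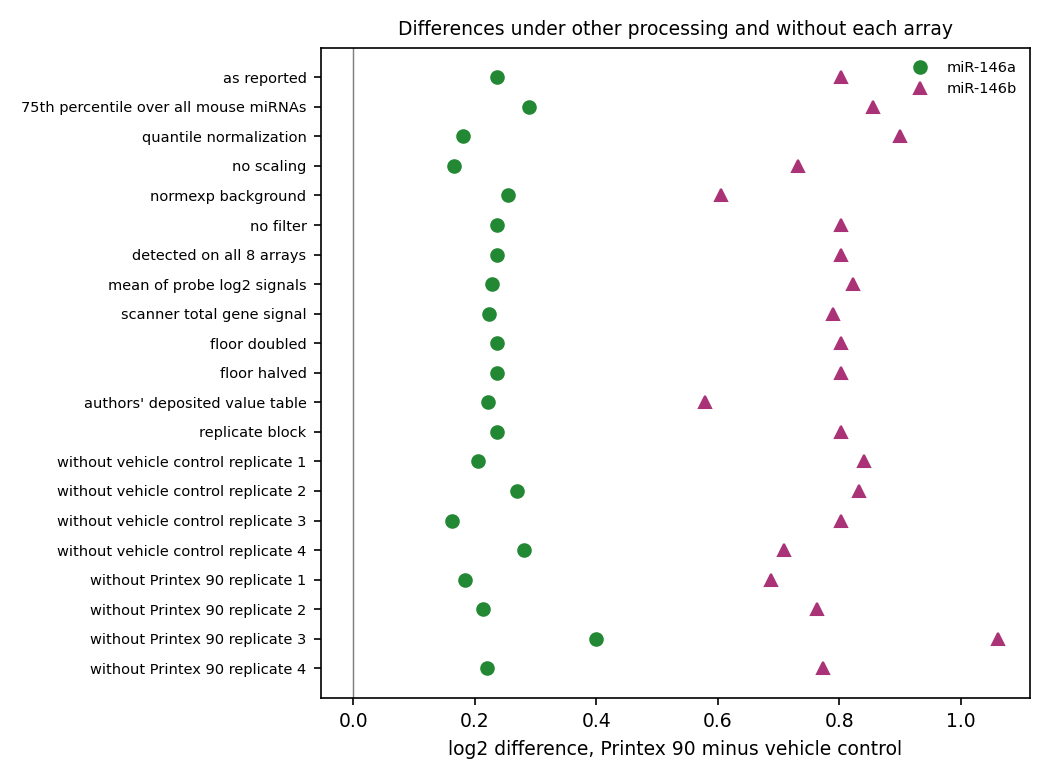
Log2 difference (Printex 90 minus vehicle control) of miR-146a (circles) and miR-146b (triangles) under each way of processing and without each array. miR-146b lies to the right of miR-146a in every row, and both lie farthest right without Printex 90 replicate 3 (0.40 and 1.06).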

How the data were processed

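Lung RNA from 8 samples (4 vehicle control, 4 Printex 90) was measured on one-colour Agilent miRNA arrays, after extraction with a miRvana kit per the labels' protocols. Per the file headers, the authors made the deposited spot intensity values with Agilent Feature Extraction 10.7.3.1 (design 021828), subtracting background within each array. Their deposited value table is on a log2 scale. How it was made is not given here by any source, and it served as an alternative only. Control and outlier-flagged spots were dropped, and no spot carried a saturation flag. Signals were averaged over a probe's spots, summed over a miRNA's probes and scaled by each array's 75th percentile, taken over the 240 mouse miRNAs found on every array. A floor of 0.0388 (5th percentile of detected signals) was set before log2. The 268 miRNAs detected on at least 4 arrays were fitted with limma 3.58.1 (R 4.3.3), 2-sided, with Benjamini-Hochberg adjustment. The step was tested on simulated data with independent normal noise and no floor, which does not cover correlated miRNAs or a deviating array. The normexp alternative used the median spot signal. Named were the family, tested members of the pathway list and the 3 miRNAs most like each member. The members, lists and rules were chosen with earlier results of these data known. The number of arrays limits the precision.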

Additional observations from a re-analysis of the deposited data

Results flagged for a closer look

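Of 50 groups of 4 arrays examined, over 24 named miRNAs and the ratio of the paralogs, 1 held an array whose gap to its nearest neighbour exceeded Dixon's 95% limit, where chance gives about 1 in 20. miR-212 on Printex 90 replicate 2 had a log2 relative signal of -2.35, and the next highest of its group had -2.68 (gap 0.954 of the range). Neither miR-146a, miR-146b nor their ratio held such an array, Printex 90 replicate 3 included.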

How the results depend on the processing

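The log2 differences of miR-146a, of miR-146b and of their ratio stayed above 0 and within 1 pooled SD of the reported values under all alternatives run, and that of the ratio ran from 0.35 to 0.72. With each array left out in turn, the ratio's difference ran from 0.43 to 0.66, that of miR-146a from 0.16 to 0.40 and that of miR-146b from 0.69 to 1.06. The limma count of miRNAs past an adjusted p of 0.05 was 0 in 21 of 22 alternatives and ran from 0 to 2 with each array left out, the 2 without Printex 90 replicate 3; the cause was not tested. The median of the pathway list was -0.050 without scaling between arrays, against 0.02 as reported, where the median of all tested miRNAs was -0.12. It ran from -0.01 to 0.05 with each array left out. The median of the leukocyte markers ran from -0.09 to 0.06. For samples with the same replicate number, r between their deviations from the group means ran from -0.47 to 0.44, with 1 of 4 pairs over 0.1. For samples with different numbers it ran from -0.83 to 0.70, so these values cannot show whether the numbers pair the samples. In both groups the replicate number was also the slide column. With the replicate number as a block, 0 miRNAs passed, and the SE was 0.19 for miR-146b and 0.076 for miR-146a. With normexp, an offset of 50 and median spot signals in place of the subtracted signal, the difference of miR-146b was 0.61 and that of miR-146a 0.25; the cause was not tested.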
